A study of Mus musculus with 14 samples.

Results

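The 31 genes described here encode proteins of epithelial cell contacts, simple epithelial keratins, surface proteases with their inhibitors, and regulators of epithelial identity. They were listed by name, and no threshold on the values of these arrays was used. Each was measured by the 1 probe of the table that the platform annotation gives to that gene alone, and all 31 were found among 19938 genes.

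The cells were MEFs, primary fibroblasts of mouse embryos, which received retroviruses for Sox2, Klf4 and Oct4 (SKO), the factors used to turn fibroblasts into pluripotent cells, or, as control, for green fluorescent protein (GFP). From day 2 all cells, controls included, grew in medium for embryonic stem cells that held the cytokine LIF, with vitamin C at 50 µg/ml or without it. RNA was taken from GFP cells on day 3 and from SKO cells on days 3, 4, 5, 6, 8 and 10, with 1 Affymetrix whole-transcript array for each combination of virus, day and vitamin C, 14 in all. The labels give no mouse strain and no number of embryos or cultures, so all arrays may come from a single infection experiment. Values are log2 signals, on which a difference of 1 is a doubling. No condition had a replicate: every test takes its error from how the difference between treated and untreated arrays varied from day to day, and a p-value here does not speak of independent cultures.

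Epithelial cells are held together by adherens junctions (E-cadherin), tight junctions (claudins, occludin) and desmosomes, and carry keratins as intermediate filaments. Fibroblasts are mesenchymal: they lack these contacts, and the repressors SNAI and ZEB hold the epithelial genes down by binding E-boxes in their promoters. When fibroblasts are reprogrammed they pass through a mesenchymal-to-epithelial transition, in which E-cadherin and other epithelial genes are switched on before the pluripotency network is complete.

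Of the 31 genes, 8 rose between day 3 and day 10 of SKO cells, led by Epcam (7.51-fold), Spint2 (4.11-fold) and Ocln (3.76-fold), and 1, Krt19, fell, where 6.55% of all genes were higher and 5.64% lower. None of the 5 regulators, claudins or desmosomal genes passed the same test. GFP cells were measured on day 3 only, so over the course the factors and time in culture cannot be told apart. At day 3, P-cadherin (Cdh3) and Krt7 were lower in SKO than in GFP cells and desmoplakin (Dsp) was higher, 2 and 1 of 31 genes, where 8.43% of all genes were lower and 9.22% higher. No gene of the 31 passed the test for vitamin C, where 0.642% of all genes were higher and 0.291% lower.

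The promoters of the 4 genes with the largest rises that had an entry in the RefSeq promoter table of assembly GRCm38.p6 are shown because SNAI and ZEB factors, repressors of epithelial genes, recognise the E-box CAGGTG, which is in capitals here on either strand. Each run is taken from the 250 bases before the start given in the promoter table, 5′ to 3′ in the direction of transcription. For Spint2 that start lies inside the extent that RefSeq's gene table gives for the gene, so 82 of the 250 bases are within the gene and only the 168 bases outside it are shown.
Epcam promoter (chr17:87635729-87635978, plus strand): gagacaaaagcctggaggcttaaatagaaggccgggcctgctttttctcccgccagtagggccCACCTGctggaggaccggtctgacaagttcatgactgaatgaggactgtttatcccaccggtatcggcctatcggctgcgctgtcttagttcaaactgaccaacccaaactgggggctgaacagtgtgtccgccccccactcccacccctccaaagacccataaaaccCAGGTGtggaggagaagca
Spint2 promoter (chr7:29282060-29282227, minus strand): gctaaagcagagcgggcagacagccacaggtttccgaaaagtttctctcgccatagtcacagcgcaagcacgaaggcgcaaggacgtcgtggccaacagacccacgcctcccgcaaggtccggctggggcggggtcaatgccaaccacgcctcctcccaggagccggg
Ocln promoter (chr13:100552719-100552968, minus strand): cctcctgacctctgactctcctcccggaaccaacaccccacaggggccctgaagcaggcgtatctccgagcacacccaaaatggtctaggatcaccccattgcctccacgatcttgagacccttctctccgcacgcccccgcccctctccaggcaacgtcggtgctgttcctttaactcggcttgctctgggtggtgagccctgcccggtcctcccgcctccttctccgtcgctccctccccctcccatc
Spint1 promoter (chr2:119237110-119237359, plus strand): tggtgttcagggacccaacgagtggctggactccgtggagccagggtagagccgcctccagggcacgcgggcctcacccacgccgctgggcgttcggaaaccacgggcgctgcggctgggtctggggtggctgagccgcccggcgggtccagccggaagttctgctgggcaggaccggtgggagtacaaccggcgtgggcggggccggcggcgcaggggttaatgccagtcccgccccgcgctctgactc

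Epcam held 2 E-boxes, beginning 187 and 19 bases before the start, both outside the gene. Spint2 held 3 in its 250 bases, beginning 74, 55 and 9 bases before the table's start, all of them in the part inside the gene, and none in the bases shown. Ocln and Spint1, which rose as well, held none in this window. St14 and Cdh1 are not printed. Over the 20 members with an entry, CAGGTG on either strand was present in 12 (60%), beside 17.1% of 27018 promoters of the same length. Members' promoters had a median GC content of 62%, against 52% over all promoters, and among all promoters within the members' GC range 19.2% held the motif. Counting only windows wholly outside the gene's extent, 9 of 14 members held it (64.3%), beside 17.2% of 19821 promoters. The motif did not set apart the genes that rose: it was in 4 of 6 members that rose and had an entry, and in 8 of the 14 others. Lsr, among the risers, and Ap1m2, which did not pass the test, each held 4. The core of the grainyhead (GRHL) site, AACNNGTT, which reads the same on both strands, was in 1 of the 20 (5%), that of Rab25, beside 3.65% of all promoters. The KLF motif CACCC, on either strand, was in 16 of 20 (80%) beside 51.4%, and the octamer ATGCAAAT, on either strand, in 0 of 20 beside 1.62%. Shares within the members' GC range were taken for CAGGTG alone, so the part of GC content in the CACCC shares was not tested. These motifs can overlap each other, and a match is a string of letters, with no binding measured.

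Array medians were close, from 5.19 to 5.28. Probes for olfactory receptors, which fibroblasts are not known to use, gave a rough floor: over 1035 such probes the 95th percentile lay between 4.34 and 4.62 in the 14 arrays. By that floor 17 of the 31 members were above it in every array and 12 in some, while the regulators Grhl2 and Esrp1 were above it in none. Probes differ in affinity, so a level at the floor does not show that a gene is silent. The arrays of days 3, 5 and 10 stood apart from those of days 4, 6 and 8: 1136 of 19938 genes (5.7%) were lower in all 6 arrays of the first set than in all 6 of the second, and 729 (3.66%) were higher. Among the members, 1 gene, Jup, was lower in this way and 0 were higher. For that reason the change over time was measured within each set of days as well. A bulk measurement cannot tell more cells of a type from more RNA per cell. The fibroblast label was checked by markers: the mean of 10 fibroblast genes was 9.40 to 9.87 in the SKO arrays, well above the olfactory floor, and that of 13 keratinocyte and basal epithelial genes was 4.20 to 4.44, near it.

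The adhesion genes gave the largest change of the course. Epcam encodes a homophilic adhesion protein of epithelial and pluripotent cells. Without vitamin C its log2 signals on the 6 successive days were 4.22, 4.20, 4.83, 5.39, 6.11 and 7.01. With vitamin C they were 4.36, 4.76, 5.40, 5.43, 7.00 and 7.38. Every array of days 8 and 10 was above every array of days 3 to 6, and in the treated arm each sample was higher than the one before. The GFP arrays, at 4.35 without and 4.39 with vitamin C, lay beside those of SKO cells on day 3. Day 10 exceeded day 3 by 2.91 ± 0.20 (SE, 2 arrays a day, limma, adjusted p = 8.68e-06).

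E-cadherin (Cdh1), the core of the adherens junction, had a smaller change. Without vitamin C it read 4.81, 5.26, 5.14, 5.67, 5.63 and 5.64 on successive days. With vitamin C it read 4.76, 5.03, 5.28, 5.96, 6.24 and 6.35, above the untreated array by 0.61 on day 8 and 0.72 on day 10. The mean of both arms had covered 35.5% of the change on day 5, where Epcam had covered 28.5%. On day 6, which belongs to the other set of days, the shares were 85.2% and 38.4%. The difference of day 10 from day 3 was 1.21 ± 0.22 (SE; limma, adjusted p = 0.00338), and it was 0.83 in the untreated arm and 1.60 in the treated arm. This call rested on single arrays: it was 1.03 (limma, adjusted p = 0.0548) without the treated array of day 3, and 0.93 (adjusted p = 0.0531) without that of day 10. P-cadherin (Cdh3), a classical cadherin of basal epithelia and some mesenchyme, stayed between 5.06 and 6.00 in the 12 SKO arrays and differed between days 10 and 3 by -0.09 ± 0.24 (SE; limma, adjusted p = 0.874).

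**Figure D1:**
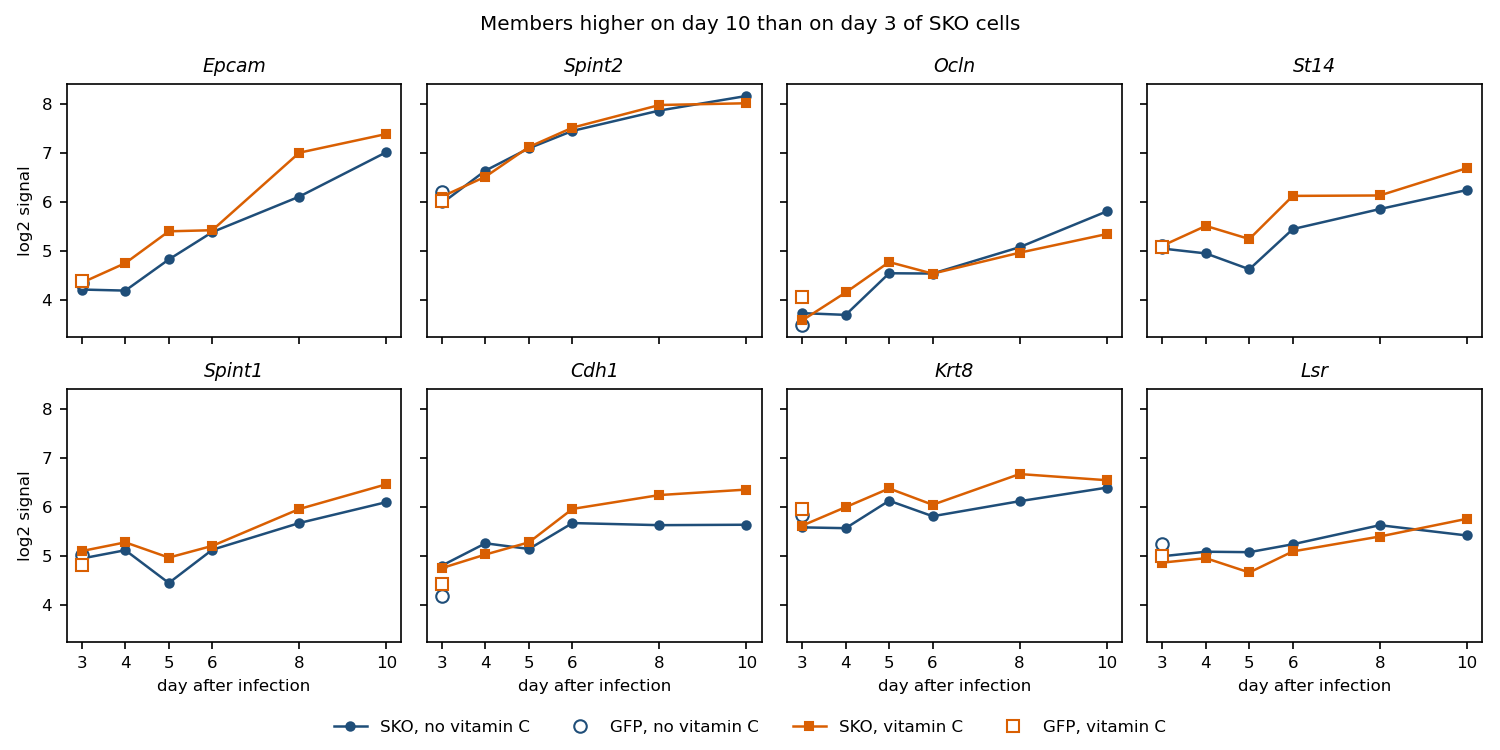
Log2 signal (vertical axis) against the day after infection (horizontal axis) for the 8 members that were higher on day 10 than on day 3 of SKO cells; each point is 1 array, filled for SKO and open for GFP cells, blue without and orange with vitamin C. All 4 arrays of days 8 and 10 lie above all 4 of days 3 and 4 in each panel, and Epcam spans the widest range, from 4.20 to 7.38.

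The surface proteases and their inhibitors gave 3 calls, all higher, where 6.55% of all genes were higher. Matriptase (St14) is a membrane serine protease of epithelia, prostasin (Prss8) is a partner protease that it can activate, and Spint1 and Spint2 encode the Kunitz-type inhibitors HAI-1 and HAI-2 that restrain it. Of these 4 genes, 3 rose and Prss8 did not pass the test. Spint2 was higher at every step of both arms: it read 5.98, 6.64, 7.09, 7.45, 7.86 and 8.16 on successive days without vitamin C and 6.11, 6.52, 7.12, 7.51, 7.97 and 8.01 with it. The arms never differed by more than 0.15, and the GFP arrays were at 6.20 without and 6.03 with vitamin C. Day 10 exceeded day 3 by 2.04 ± 0.14 (SE; limma, adjusted p = 9.31e-06).

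St14 had its highest values on day 10 in both arms. Its untreated arrays read 5.05, 4.95, 4.63, 5.45, 5.86 and 6.24 on successive days. Its treated arrays read 5.11, 5.51, 5.25, 6.12, 6.13 and 6.69. The treated array was above the untreated array on all 6 days, and both GFP arrays, at 5.10 and 5.08, lay beside SKO cells on day 3. Day 10 exceeded day 3 by 1.38 ± 0.17 (SE; limma, adjusted p = 0.000333). Spint1 had its lowest values on day 5, at 4.45 without and 4.97 with vitamin C, and its highest on day 10, at 6.10 and 6.46. It exceeded its day 3 signals of 4.95 and 5.10 by 1.25 ± 0.15 (SE; limma, adjusted p = 0.00031). Prss8 ranged from 4.36 to 5.21 over the SKO arrays, and its difference of day 10 from day 3 was 0.09 ± 0.25 (SE; limma, 95% interval from -0.45 to 0.63).

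Among 9 tight junction and polarity genes 2 rose, where 6.55% of all genes were higher. Occludin (Ocln) is a transmembrane protein of the tight junction strand. Its untreated arrays read 3.74, 3.70, 4.55, 4.54, 5.08 and 5.81 on successive days and its treated arrays 3.59, 4.16, 4.78, 4.54, 4.97 and 5.35. It was below the olfactory floor at the start and above it at the end, and the untreated array of day 10 was the highest. The GFP arrays read 3.49 and 4.07. Day 10 exceeded day 3 by 1.91 ± 0.20 (SE; limma, adjusted p = 0.000111). Lsr encodes angulin-1, which recruits tricellulin to the corners where 3 cells meet. It went from 5.00 and 4.87 on day 3 to 5.42 and 5.76 on day 10, a difference of 0.66 ± 0.18 (SE; limma, adjusted p = 0.0305). The call for Lsr was lost without either array of day 3, and without the treated array of day 10 the value was 0.38 (limma, adjusted p = 0.318).

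The claudins, which form the tight junction strands and set their permeability, did not pass the test in the fit of all arrays. Cldn3 lay between 5.22 and 5.98, Cldn6 between 4.24 and 4.92 and Cldn7 between 4.02 and 4.85 over the 12 SKO arrays. Cldn4 reached 6.19 in the treated array of day 10, while the untreated array of that day was at 5.09 and the other SKO arrays were between 4.86 and 5.62. Its difference of day 10 from day 3 was 0.52 ± 0.33 (SE; limma, adjusted p = 0.382), with a 95% interval from -0.20 to 1.23. This value rested on day 10: it was 1.19 (limma, adjusted p = 0.0277) without the untreated array of that day and -0.15 (adjusted p = 0.851) without the treated one. Marveld3, a relative of occludin, differed by -0.22, the scaffold protein Tjp3 (ZO-3) by 0.05, and the apical polarity protein Crb3 by -0.17, none past the threshold.

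Among the keratins, Krt8 rose and Krt19 fell, where 6.55% of all genes were higher and 5.64% lower. Keratin 8 and keratin 18 form the obligate filament pair of simple epithelia. Krt8 went from 5.58 and 5.62 on day 3 to 6.39 and 6.54 on day 10, and its 4 arrays of days 8 and 10 were all above its 4 arrays of days 3 and 4. The difference was 0.87 ± 0.16 (SE; limma, adjusted p = 0.00395). It was 0.72 (limma, adjusted p = 0.0708) without the treated array of day 3. Krt18, the partner, went from 4.89 and 5.09 to 4.90 and 5.46, a difference of 0.19 ± 0.20 (SE; limma, 95% interval from -0.24 to 0.62). Krt19 was highest on day 3, at 6.01 and 5.78, and read 5.33 in both arrays of day 10, a difference of -0.56 ± 0.14 (SE; limma, adjusted p = 0.0216). That call was lost without any single array of days 3 or 10, where the value went from -0.64 to -0.49 and the adjusted p from 0.0738 to 0.162, and with day 4 in place of day 3 (-0.32, limma, adjusted p = 0.154). Krt7 differed by 0.18 and did not pass.

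The desmosomal genes gave 0 calls of 3, with 2 at an unadjusted limma p under 0.05, which 24.7% of all genes reached. Plakoglobin (Jup) belongs to desmosomes and adherens junctions. It read from 7.94 to 8.67 in the 6 arrays of days 3, 5 and 10 and from 8.95 to 9.75 in the 6 arrays of days 4, 6 and 8. These ranges did not overlap. Its difference of day 10 from day 3, both within the first set, was 0.69 ± 0.22 (SE; limma, adjusted p = 0.0665). Jup passed under 5 of 14 alternatives, among them the days 3, 5 and 10 alone (0.69, adjusted p = 0.0233) and an intensity trend (adjusted p = 0.0267). Its value depended on which days were compared: day 8 exceeded day 3 by 1.43 (limma, adjusted p = 0.00141), and day 10 differed from day 4 by -0.47 (adjusted p = 0.182). Desmoplakin (Dsp), which ties desmosomes to keratin filaments, went from 5.90 and 6.49 on day 3 to 6.67 and 6.70 on day 10 (0.49 ± 0.17, SE; limma, adjusted p = 0.0956). Pkp3, a plakophilin, read between 5.21 and 5.64 throughout SKO cells.

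The regulators gave no call over the course. GRHL2 is a grainyhead factor that activates E-cadherin and claudin genes, OVOL1 and OVOL2 repress mesenchymal genes, and ESRP1 and ESRP2 direct epithelial splicing. None of the 5 passed the test, where 6.55% of all genes were higher and 5.64% lower. Their differences of day 10 from day 3 lay between -0.08 and 0.46. Esrp1 alone had an unadjusted limma p under 0.05, which 24.7% of all genes reached. From day 4 to day 8 all 5 were below 0 in the fit of both arms, between -0.32 and -0.12. From day 5 to day 10 all 5 were above 0, between 0.01 and 0.26, and none was called in either contrast. The arms did not share these signs. Without vitamin C, Ovol1, Ovol2 and Esrp2 were higher on day 8 than on day 4. From day 5 to day 10 untreated Grhl2 went from 3.86 to 3.57, Ovol1 from 4.53 to 4.13 and Esrp1 from 3.83 to 3.74, while untreated Ovol2 and Esrp2 rose. With vitamin C, Ovol2 alone was lower on day 10 than on day 5. Grhl2 read 3.89 and 4.05 on day 3 and 3.57 and 4.43 on day 10, all below the olfactory floor, with a difference of 0.03 ± 0.21 (SE; limma, 95% interval from -0.42 to 0.48). Esrp1 read 3.41 and 3.83 on day 3 and 3.74 and 4.42 on day 10, a difference of 0.46 ± 0.18 (SE; limma, adjusted p = 0.123). Ovol1 was the least even of the 5: on day 10 it read 4.13 without and 5.38 with vitamin C, and on day 6 4.91 and 3.96. Its difference of day 10 from day 3 had the widest 95% interval of the 5, from -0.98 to 0.81. Ovol2 (0.04, 95% interval from -0.30 to 0.37) and Esrp2 (0.07, from -0.45 to 0.58) varied less. Ap1m2, an adaptor subunit of basolateral sorting, Rab25, an epithelial recycling GTPase, and Bspry, a B-box protein, differed by 0.08, 0.38 and -0.05 and did not pass.

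**Figure D2:**
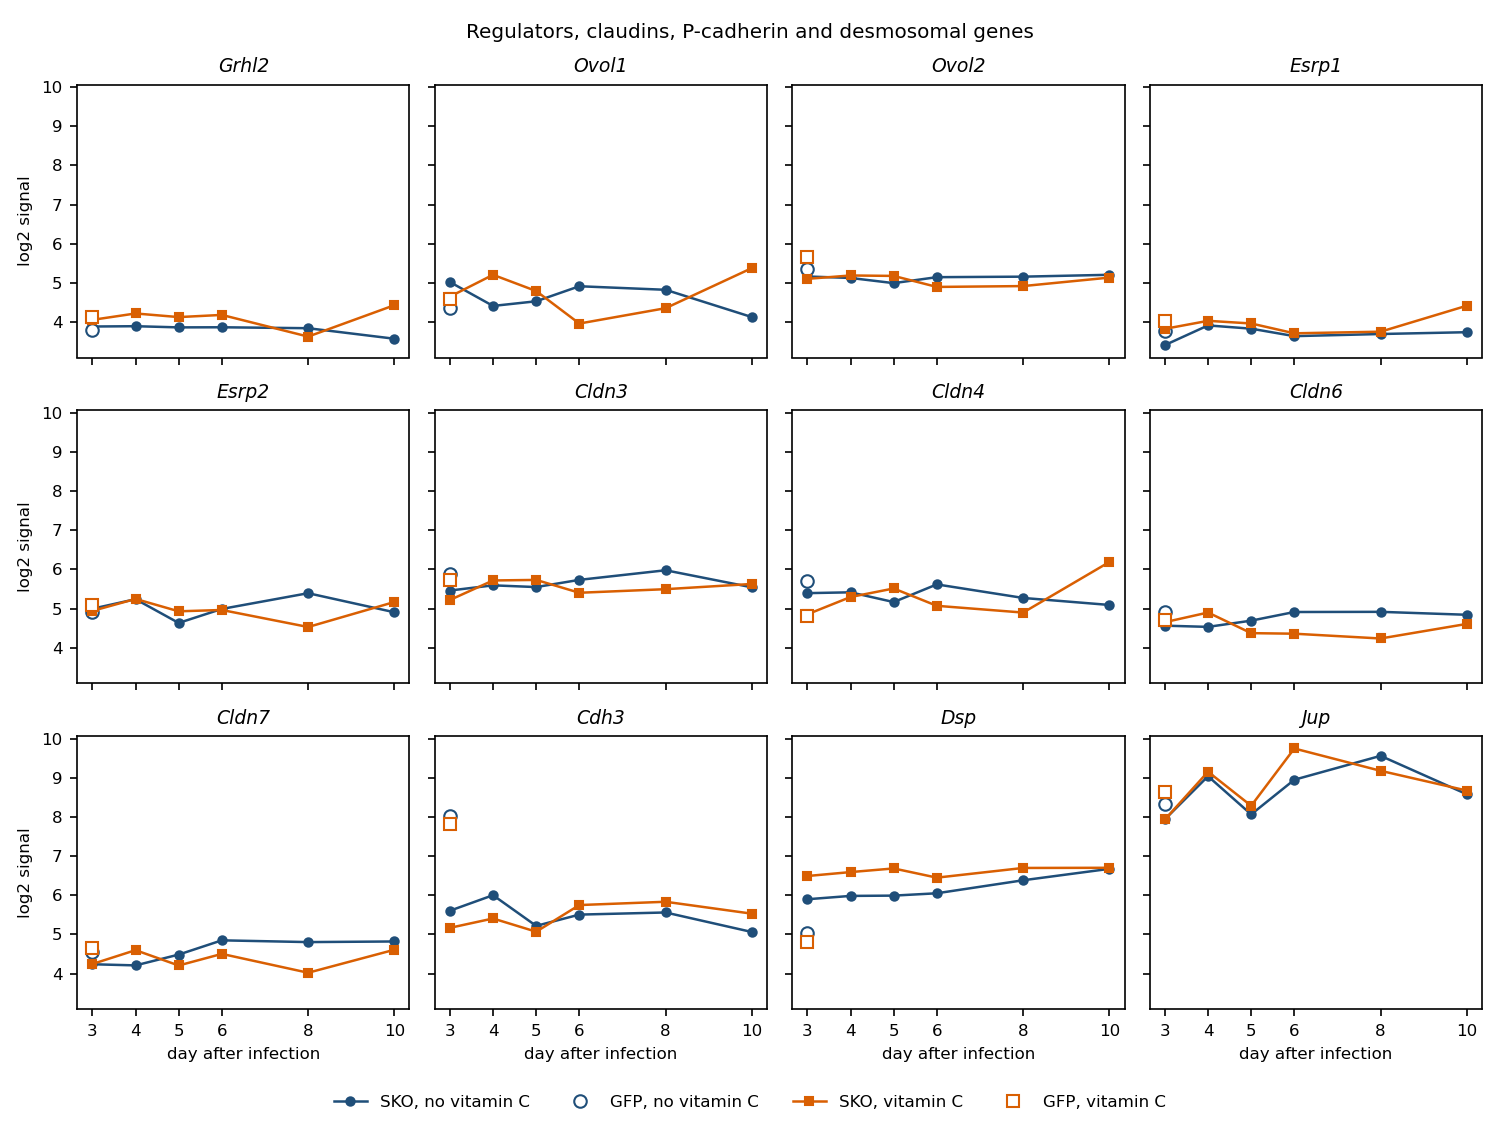
Log2 signal (vertical axis) against the day after infection (horizontal axis) for the 5 regulators, 4 claudins, P-cadherin and the desmosomal genes Dsp and Jup; each point is 1 array, with colours and open symbols as for the rising genes. In no panel do all arrays of days 8 and 10 lie above all those of days 3 and 4, and Ovol1 varies between 3.96 and 5.38. Cdh3 is near 8 in the GFP control arrays of day 3 and lies between 5.06 and 6.00 in SKO cells. Jup alternates between days 3, 5 and 10 and days 4, 6 and 8.

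In counts, 8 of 31 members rose from day 3 to day 10, where 6.55% of 19938 genes (1306) were higher by the same limma test, and 1 fell, where 5.64% (1124) were lower. Centring each array on its median turned the split over all genes to 1115 higher and 1482 lower, and that of the members remained 8 and 1. The median difference of the members was 0.19, and that of all genes -0.02. The same number of members, 8 of 31 (25.8%), had all 4 arrays of days 8 and 10 above all 4 of days 3 and 4, as did 6.31% of all genes. Without the treated array of day 3 the members' calls fell to 5, all higher: those of Cdh1, Krt8, Lsr and Krt19 were lost.

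**Figure D3:**
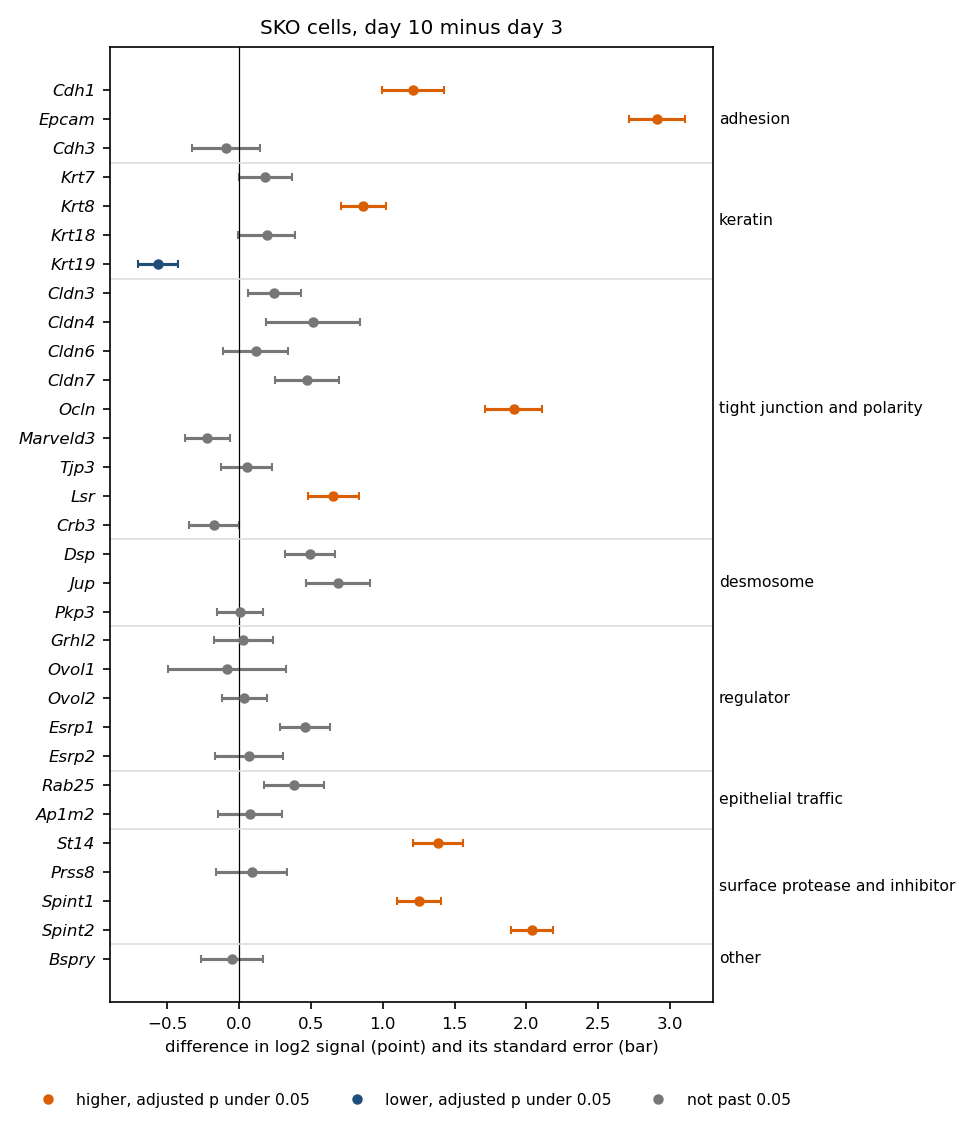
Difference in log2 signal between day 10 and day 3 of SKO cells (horizontal axis) for the 31 members, ordered by role; points are the fitted difference of 2 against 2 arrays and bars its standard error, coloured by whether the adjusted p passed 0.05. Epcam at 2.91, Spint2 at 2.04 and Ocln at 1.91 stand at the right, Krt19 at -0.56 on the left, and the regulators lie between -0.08 and 0.46.

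Within each set of days the leading genes were called again, in contrasts that share the fit, and for day 10 the arrays, with the one above. Cdh1, Krt8 and Lsr were called in neither. Their limma adjusted p was 0.0915, 0.0759 and 0.197 for day 8 against day 4. For day 10 against day 5 it was 0.109, 0.668 and 0.0687. From day 4 to day 8, 4 members rose, where 1.85% of all genes were higher, and 0 fell, where 0.492% were lower. The members as a set did not shift upward over these days. Their median difference was -0.09, that of all genes -0.04, and 13 of the 31 were above 0. Epcam gained 2.08 ± 0.20 (limma, adjusted p = 0.000523), Spint2 1.34 ± 0.14 (adjusted p = 0.00126), Ocln 1.09 ± 0.20 (adjusted p = 0.0173) and St14 0.76 ± 0.17 (adjusted p = 0.0418). Bspry was the 1 member below 0 at an unadjusted p under 0.05 (-0.57). Ocln and St14 lost their calls without the untreated array of day 4 or either array of day 8, and the count was 2 without that of day 4 or the treated array of day 8. From day 5 to day 10, 5 members rose, where 1.21% of genes were higher, and 0 fell, where 0.517% were lower and no member had an unadjusted limma p under 0.05. Here the median of the members was 0.23, that of all genes -0.01, and 27 of the 31 were above 0. Epcam gained 2.08 ± 0.20 (limma, adjusted p = 0.00104), Spint1 1.57 ± 0.15 (adjusted p = 0.00115), St14 1.53 ± 0.17 (adjusted p = 0.00301), Spint2 0.98 ± 0.14 and Ocln 0.91 ± 0.20 (adjusted p = 0.0436). Without the untreated array of day 5 the count was 2, and without the untreated array of day 10 or the treated array of day 5 it was 3. On day 5 the mean of both arms was 4.94 for St14 and 4.71 for Spint1, below their day 3 means of 5.08 and 5.03, while Ocln, at 4.66 against 3.67, and Spint2, at 7.11 against 6.04, were above theirs.

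Further epithelial genes were measured over the same span. Of 41 such genes, 10 rose and 1 fell from day 3 to day 10, where 6.55% of all genes were higher and 5.64% lower. Their median difference was 0.18 and that of all genes -0.02. The 4 largest differences were those of Erbb3 (1.63), a receptor of neuregulins, the ETS factor Ehf (1.61), the mucin Muc1 (1.42) and the polarity scaffold Patj (1.31). Pkp2, a plakophilin also found in heart and mesenchyme, fell by 0.97. Hairpins of the miR-200 family, which silences Zeb1 and Zeb2 in epithelia, gave 0 calls among 4 measured. Mir200b had the largest difference of them (-0.47, limma, adjusted p = 0.169) and was the 1 with an unadjusted p under 0.05. An array of this kind measures the hairpin region, not the mature miRNA.

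The mesenchymal counterparts gave 2 lower and 0 higher of 10 over the same span, where 5.64% of all genes were lower and 6.55% higher. N-cadherin (Cdh2), the mesenchymal cadherin, went from 8.40 and 8.00 on day 3 to 7.16 and 6.89 on day 10 (-1.18 ± 0.15, SE; limma, adjusted p = 0.000361), and Prrx1 differed by -0.50. The repressors did not pass the test: Zeb1 differed by -0.06, Zeb2 by -0.05, Snai1 by -0.38 and Snai2 by -0.59 (limma, adjusted p = 0.0542).

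Markers of another cell type moved with the rise. From day 3 to day 10, 6.55% of all genes were higher and 5.64% lower. Of 13 macrophage markers 10 rose from day 3 to day 10, among them Mrc1 (2.78) and Lyz2 (2.62), and the mean of the list went from 4.47 to 4.65 on day 3 to 5.78 to 5.97 on day 10. On day 8 it was 5.01 to 5.32, and from day 4 to day 8 2 of the 13 rose, where 1.85% of all genes were higher. The pan-leukocyte gene Ptprc read 3.63 and 3.68 on day 3 and 4.70 and 4.36 on day 10. Their part in the change of the members was not tested. Keratinocyte and basal epithelial markers gave 1 call of 13 (Trp63, 0.83), mesothelial markers 1 lower of 8 (Upk1b, -0.84), endothelial markers 1 of 8 (Tek, 1.89), and fibroblast markers 3 higher and 1 lower of 10, led by Lum (2.22), Dcn (2.10), Pdgfra (0.85) and Col1a1 (-0.79).

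The comparison of SKO with GFP cells on day 3 asked what the factors had done before the rise. It shares the SKO arrays of day 3 with the course, so the values of both are given and their agreement is not counted. Of the 31 members 1 was higher, where 9.22% of all genes were, and 2 were lower, where 8.43% were. The median difference of the members was -0.08 and that of all genes -0.04. Cdh3 read 8.02 and 7.82 in GFP cells and 5.61 and 5.17 in SKO cells, with no overlap, a difference of -2.53 ± 0.23 (SE; limma, adjusted p = 1.64e-05), which is 5.79-fold. The highest SKO array of any day, the untreated array of day 4, read 6.00. Dsp was the opposite case: it read 5.05 and 4.80 in GFP cells and 5.90 and 6.49 in SKO cells, higher by 1.27 ± 0.21 (SE; limma, adjusted p = 0.00113). Krt7 read 6.06 and 5.92 in GFP cells and 5.20 and 5.44 in SKO cells, a difference of -0.67 ± 0.18 (SE; limma, adjusted p = 0.0235). Its call was lost without any single array of the comparison (limma, adjusted p from 0.0634 to 0.17) and with SKO day 4 in place of day 3 (-0.27, adjusted p = 0.511).

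The 8 genes that rose later were not called at this stage. Epcam differed by -0.08, Spint2 by -0.07, Ocln by -0.12, St14 by -0.01 and Spint1 by 0.11 between SKO and GFP cells on day 3. Cdh1 read 4.20 and 4.43 in GFP cells and 4.81 and 4.76 in SKO cells, a difference of 0.47 ± 0.21 (SE; limma, adjusted p = 0.15). With SKO day 4 in its place it was 0.83 (limma, adjusted p = 0.0245). For the lists that follow, 9.22% of all genes were higher and 8.43% lower. Among the other epithelial genes 10 were higher and 2 lower of 41, with Cxadr (2.11), the desmosomal cadherin Dsc2 (1.55), the hemidesmosomal integrin Itgb4 (1.53) and Ehf (1.08) in front. Of the mesenchymal list 4 of 10 were lower and 1 higher. Snai1 read 7.56 and 7.94 in GFP cells and 6.22 and 6.29 in SKO cells (-1.49 ± 0.14, SE; limma, adjusted p = 2.68e-05). Snai2 differed by -0.61, Zeb1 by -0.52 and Twist2 by -0.53, while Zeb2 was higher by 0.50 and Cdh2 differed by 0.27 without passing. Fibroblast markers were lower for 7 of 10, among them Lum (-1.91), Pdgfra (-1.41), Thy1 (-1.24) and Pdgfrb (-1.19). Their part in the lower Cdh3 and Krt7 was not tested. The other marker lists gave few calls: 2 higher and 1 lower of 8 mesothelial genes (Msln, 1.17, Upk1b, 1.09, and Bnc1, -0.73), 1 lower of 13 macrophage genes (Mpeg1, -0.79) and 1 higher of 8 endothelial genes (Tek, 2.66).

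**Figure D4:**
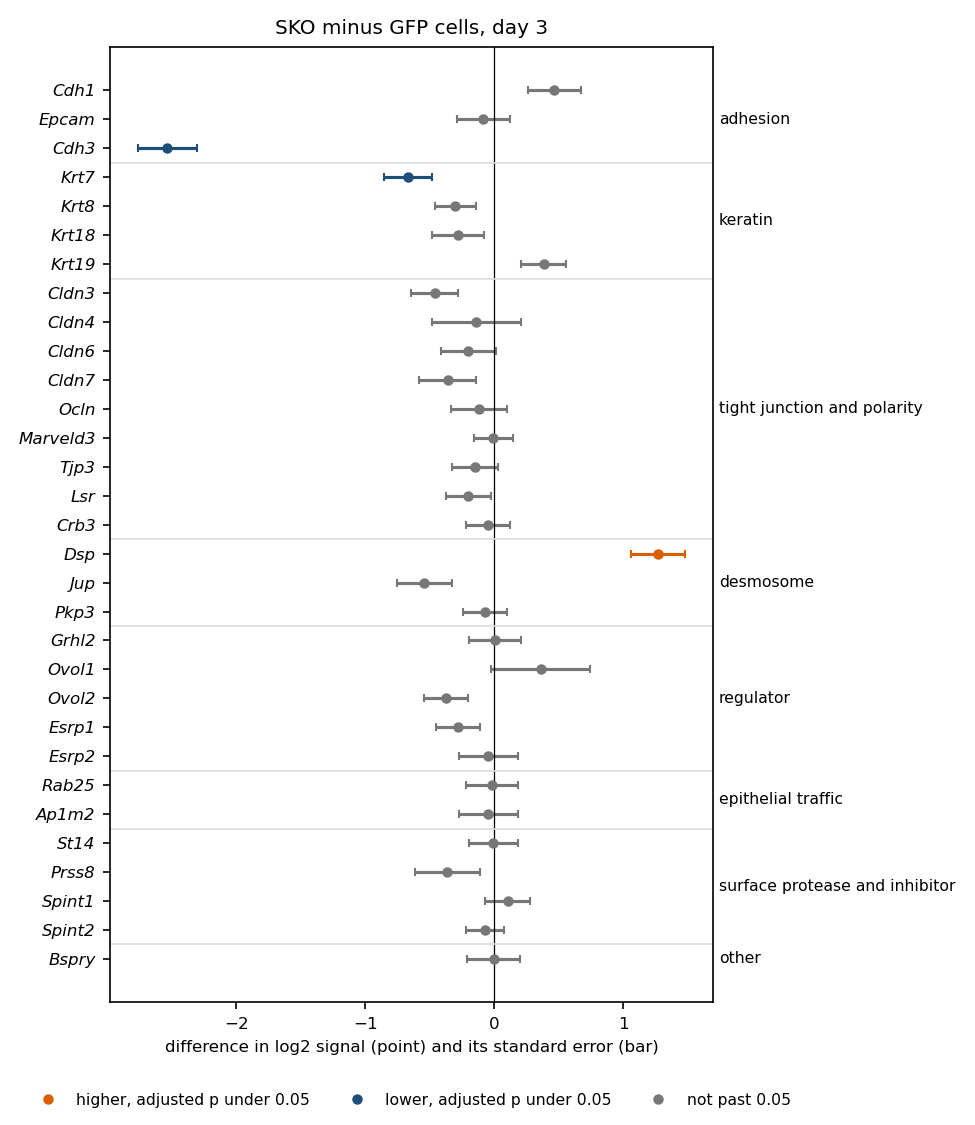
Difference in log2 signal between SKO and GFP cells on day 3 (horizontal axis) for the 31 members, ordered by role; points are the fitted difference of 2 against 2 arrays and bars its standard error, coloured by whether the adjusted p passed 0.05. Cdh3 at -2.53 and Krt7 at -0.67 lie on the left and Dsp at 1.27 on the right, and the genes that rose later lie within 0.47 of 0.

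Vitamin C, the treatment the study set out to test, gave 0 calls among the 31 members by limma, where 0.642% of all genes were higher and 0.291% lower. At an unadjusted p under 0.05 there were 8, all higher: Epcam, Krt8, Dsp, Grhl2, Esrp1, Ap1m2, St14 and Spint1. That is 25.8% of the members, beside 6.5% of all genes higher and 5.07% lower at the same p. The median difference of the members was 0.01 and that of all genes -0.01. The treated array was above the untreated array on all 6 days for Epcam, Krt8, Dsp, Esrp1, St14 and Spint1. For St14 the daily differences lay between 0.06 and 0.68, with a mean of 0.44 ± 0.10 (SE; limma, adjusted p = 0.0699). Dsp had differences between 0.03 on day 10 and 0.69 on day 5, with a mean of 0.44 ± 0.10 (SE; limma, adjusted p = 0.0735). Epcam had differences between 0.04 on day 6 and 0.89 on day 8, with a mean of 0.43 ± 0.11 (SE; limma, adjusted p = 0.123). These values stand close to the threshold: both Dsp and St14 passed it with the genes of lowest mean signal left out (limma, adjusted p = 0.0395 and 0.0361) and with an intensity trend (0.0368 and 0.0453). Grhl2 was higher on 5 of 6 days by a mean of 0.29, at signals under the olfactory floor. Esrp1 was above that floor in 0 of 14 arrays and Ap1m2 in 5. The largest daily differences of Grhl2, Esrp1 and Ap1m2 were those of day 10, at 0.86, 0.68 and 0.98.

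**Figure D5:**
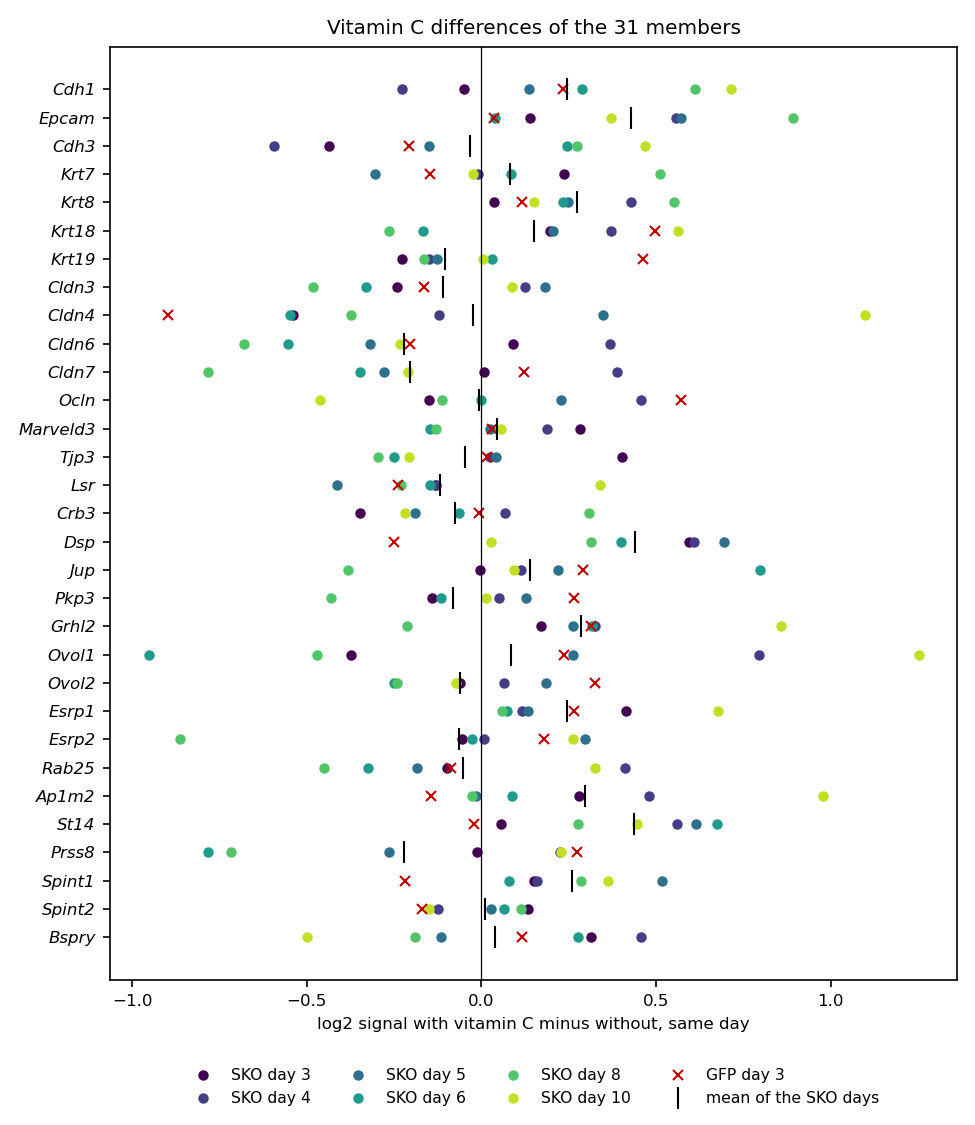
Difference in log2 signal between the array with and the array without vitamin C of the same day (horizontal axis) for the 31 members; dots are the 6 days of SKO cells, crosses the GFP pair of day 3 and vertical marks the mean of the SKO days. For Epcam, Krt8, Dsp, Esrp1, St14 and Spint1 all 6 dots lie right of 0, while for Spint2 they lie within 0.15 of it.

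Spint2 had daily differences from -0.15 to 0.13, with a mean of 0.01 and a 95% interval from -0.17 to 0.19. Krt19 had daily differences from -0.23 to 0.03, with a mean of -0.11. Ocln had a mean of -0.01 with daily values between -0.46 and 0.46. Cdh1 went from -0.23 on day 4 and -0.05 on day 3 to 0.61 on day 8 and 0.72 on day 10, with a mean of 0.25 ± 0.12 (SE; limma, adjusted p = 0.494). No member passed the test for a change of the vitamin C difference per day, where 0.0351% of all genes were called and 5 members had an unadjusted limma p under 0.05: Cdh1, Cdh3 and Cldn4 with a positive slope and Dsp and Bspry with a negative slope, beside 7.87% of all genes at that p. For Cdh3 the daily difference turned from -0.44 on day 3 to 0.47 on day 10. The slope of Cldn4 was 0.15 per day with all days and -0.015 without day 10. Over all genes those calls were 2 upward and 5 downward, and 14 and 7 after median centring. In the GFP pair the treated array differed by 0.04 for Epcam, -0.02 for St14, -0.25 for Dsp and -0.90 for Cldn4. Of the other lists, 0 of 41 further epithelial genes and 0 of 10 mesenchymal genes passed the vitamin C test, with 8 and 2 at an unadjusted limma p under 0.05, the 8 all higher and the 2 both lower. At that p 6.5% of all genes were higher and 5.07% lower. The vitamin C difference of GFP cells, from 1 pair of arrays, gave 0 calls against that of SKO cells among the members and 0% over all genes, and 2 members, Krt19 and Dsp, had an unadjusted limma p under 0.05, beside 6.91% of all genes.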

How the data were processed

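Biotin-labelled cDNA of total RNA was hybridised to Affymetrix whole-transcript arrays. The authors deposited 1 log2 signal per probe, made with RMA and Partek per the submitters' processing notes (software versions: not given in the sources used here). That the scale is log2 was read from the values, from 0.72 to 14.1, and from RMA's usual output. RMA compresses weak differences, so folds near the floor can be understated.

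Of 28853 probes, 21789 had 1 gene symbol, 1621 several and 5443 none; symbols were updated through RefSeq's GRCm38.p6 table, in which 19856 genes were found. A gene with several probes kept its brightest, giving 19938 genes, and each of the 31 members had 1 probe. Of 43 further epithelial genes 41 were measured, and of 5 miR-200 hairpins 4.

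Linear models were fitted with lmFit and eBayes (limma 3.58.1, R 4.3.3), and p-values were adjusted by Benjamini-Hochberg over the 19938 genes, calling those under 0.05. The 12 SKO arrays were fitted with the day as a factor and vitamin C (5 residual degrees of freedom). All 14 arrays were fitted for SKO against GFP (6), the daily slope used 4 and the difference between viruses 5. Arrays with and without vitamin C were paired by the day in the labels. As a check, deviations from the arm means correlated across genes with Pearson r between 0.248 and 0.677 for arrays of the same day; treated arrays of days 6 and 8 correlated best with untreated arrays of days 8 and 10.

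All members are named. From each other list up to 4 genes past the threshold with the largest difference were named, or the 2 largest where none passed; Zeb1, Zeb2, Snai1, Snai2 and Cdh2 were always given. A few others were named after their values were seen: Ptprc, Prrx1, Twist2 and Pkp2 as the calls of small counts. Members, lists, contrasts and rules were chosen with earlier results of these data known. Alternatives were other scalings, filters, variance models and array weights, and leaving out each array or day; 3 were added after seeing the data (day 8 for day 10, day 4 for day 3, and a linear change over 6 days).

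Promoter sequences and starts are RefSeq's (GRCm38.p6), the most upstream entry of a gene; bases inside the gene's extent are not printed. Scripts were tested on simulated data. Plots used Python 3.11.15 and matplotlib 3.10.9.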

Additional observations from a re-analysis of the deposited data

How the results depend on the processing

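Of 81 counts of called members recomputed under other settings 69 stayed within 1.5 times the reported count. Of the 81, 12 were for the daily slope and 6 for the vitamin C difference between viruses. Their main fits called 0.0351% and 0% of all genes, so their counts of 0 had little room to move. Of 258 values of called members 220 kept their call, 38 lost it and 0 changed sign. For vitamin C the count of 0 became 2 with the genes of lowest mean signal left out, 2 with an intensity trend and 1 with array weights, and was 0 to 1 with a day left out (St14 without day 3). For day 10 against day 3 the 9 calls ranged from 5 to 9 with an array left out, and Jup and Cldn4, not among them, were called under 5 and 1 of 14 alternatives. For day 8 against day 4 the 4 calls became 2 with array weights and 2 to 3 with an array left out. For day 10 against day 5 the 5 calls became 3 on days 3, 5 and 10 alone and 2 to 4 with an array left out. For SKO against GFP the 3 calls were kept on the day 3 arrays alone, where Jup (-0.54) was called beside them. Krt7 lost its call with any single array of the comparison left out and with SKO day 4 in place of day 3. Fewer arrays lower the power of these leave-out fits, and the cause of the other moves was not tested. The day is a factor in the SKO fits, which pairs treated and untreated arrays by day; with the day left out of the model the vitamin C count was 0 as well, and calls over all genes fell from 186 to 4. Weak signals limit several members. Grhl2 and Esrp1 never exceeded the olfactory floor, and Rab25, Bspry and Ap1m2 exceeded it in 2, 3 and 5 of 14 arrays. Of the other regulators, Ovol2 and Esrp2 exceeded it in all 14 and Ovol1 in 9.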
